A study of Mus musculus with 48 samples.

Results

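Liver RNA-seq was compared between 2 groups of female mice, 4 livers fed fat, cholesterol and fructose in excess (HFCF diet) and 4 fed a high-fat (HF) diet, which are 8 of the 48 libraries of the series. Livers entered by the diet, sex and genotype in their sample titles, no measured value was used to choose them, and every gene of the deposited table was examined. The series asks how PPARγ in hepatocytes and a steatohepatitis-inducing diet shape the liver transcriptome of both sexes in mice that were already obese. Every mouse in both groups was a female carrying floxed Pparg, adult when feeding began, that received AAV8-TBG-null after 16 weeks on diet. This adeno-associated virus has the hepatocyte-directed TBG promoter and no Cre, so Pparg was left intact in these controls. HF mice ate the high-fat diet for 34 weeks, and the labels call their livers steatotic. HFCF mice ate the same high-fat diet for 18 weeks and then HFCF for 16 weeks, and the labels call their livers NASH (nonalcoholic steatohepatitis). The comparison therefore asks what the last 16 weeks on HFCF in place of the high-fat diet changed on a background of established obesity. The parts of cholesterol, fructose and any other difference between the diets cannot be told apart. Numbers in the titles run 1, 2, 3 and 5 for HFCF and 1 to 4 for HF, and values below are given in that order. The labels number each library separately and do not say whether livers were pooled, so p-values measure the spread between these samples. Low-fat (LF) female controls, 4 livers with the same virus and 34 weeks of LF diet, are quoted as a reference level without a test.

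Dietary cholesterol that reaches hepatocytes lowers the processing of SREBP2, the factor that drives the genes of sterol synthesis and uptake, while oxysterols activate LXR, which drives sterol export. Fructose is taken up and phosphorylated by the liver and feeds fatty acid synthesis through ChREBP and SREBP1c. In steatohepatitis, injured hepatocytes are accompanied by recruited macrophages, by stellate cells that deposit collagen and by a ductular reaction of biliary-type epithelium.

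Libraries held 16957829 to 19078940 reads on genes. Replicate 1 of the HF group stood apart from the other HF livers. On the first principal component of log2 CPM, which carried 71.5% of the variance, HFCF livers lay at 45.5, 56.4, 22.4 and 50.2 and HF livers at 9.6, -67.3, -42.9 and -73.9. This liver was thus nearest to HFCF replicate 3, which in turn was the HFCF liver closest to the HF group. Mitochondrially encoded genes took 3.97 to 4.86% of reads over the 8 libraries, and HF replicate 1 had the highest share. Its expression correlated more closely with the HFCF livers (mean Spearman correlation 0.982) than with the other HF livers (0.972). The resemblance was not complete. On component 2 this liver lay at 32 and HFCF livers at -3.2, -3, 2 and -19.3. HF replicate 1 also had 6259 CPM of summed cholesterol synthesis genes, outside the HFCF range of 2668 to 3299 CPM. Nothing in the labels sets it apart, and whether it is a mislabelled library or an HF liver with a stronger response cannot be told from these data. It was kept in the fit as labelled, so HF means and spreads include it, and results are also given without it. Because it was singled out by the same expression values that are tested, p-values and calls without it carry that choice. They can overstate the evidence for a difference.

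**Figure D1:**
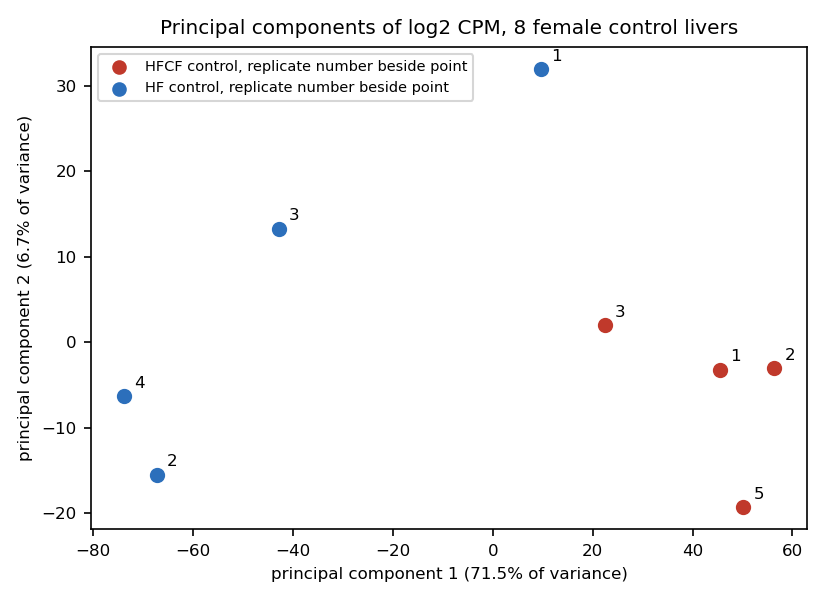
Position of the 8 female control livers on principal component 1 (x axis, 71.5% of variance) and 2 (y axis, 6.7%) of log2 CPM, with replicate numbers beside the points. HF replicate 1 lies at 9.6 on component 1, between the other 3 HF livers and the HFCF livers.

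Pparg (ENSMUSG00000000440, GRCm38 chromosome 6, 115360951 to 115490399, plus strand), the gene that is floxed in all these mice, measured 24.01, 24.3, 22.3 and 25.7 CPM (reads on the gene as a share of the library's reads, scaled by TMM factors) in HFCF livers and 23.6, 19.8, 18.6 and 13.1 CPM in HF livers. The groups overlapped only through HF replicate 1. The fold change was 0.36 on the log2 scale (SE 0.15, edgeR adjusted p 0.101), which did not pass the test, and an exact permutation test over livers, 2-sided and on log2 CPM, gave p = 0.0571, where 4 against 4 livers can give no less than 0.0286. Without HF replicate 1 the log2 fold change was 0.49 (edgeR adjusted p 0.0157). LF controls measured 8.13, 7.94, 11.5 and 14.96 CPM, below every HFCF liver, and the highest of them was above the lowest HF liver. Since these are whole livers, a change in a transcript per cell and a change in the number of cells that carry it cannot be told apart, here or in any result below.

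Of 24565 genes in the table, 14701 passed the filter on low counts and entered edgeR's quasi-likelihood fit and F test. At a Benjamini-Hochberg adjusted p under 0.05, 4526 genes (30.8%) were called, 2490 higher on HFCF (16.9%) and 2036 lower (13.8%). The median log2 fold change over all tested genes was -0.02, and 4283 genes (29.1%) had no overlap between the groups. Leaving out HF replicate 1 raised the calls to 6530 of 14988, with 3625 higher (24.2%) and 2905 lower (19.4%). All 4465 genes called in both fits had the same direction, and they made up 98.7% of the calls with all livers. Leaving out HFCF replicate 1, 2 or 5 gave 2522, 2454 and 2750 calls, and leaving out HF replicate 2, 3 or 4 gave 2733, 2813 and 2707. Counts of list members called below are to be read against the calls over all genes in the same fit. By the authors' deposited table, the number of genes with an adjusted p under 0.05 is 5066, of which 4841 were tested and 4418 called here. For single genes, fits that leave out 1 liver are counted below where a call with all 8 livers was lost. In each such gene the direction of change stayed the same. No such count was made for Mvk, Hsd17b7, Ly6c2 and Ctss.

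The 10 genes that rose most, among those with a mean of at least 1 CPM and no overlap between groups, were Cyp2c55, Adcy1, Gpnmb, Scube3, Tmem72, Asz1, Lox, H2-M2, Scd1 and Vcan. Their log2 fold changes ran from 3.10 to 3.51. Cyp2c55 (ENSMUSG00000025002, GRCm38 chromosome 19, 39007019 to 39042693, plus strand), a cytochrome P450, measured 4.70, 5.52, 7.50 and 7.52 CPM on HFCF and 0.999, 0.124, 0.378 and 0.674 CPM on HF (log2 fold change 3.51, SE 0.42, edgeR adjusted p 0.00446). Adcy1, an adenylyl cyclase, measured 5.45, 4.85, 3.30 and 16.3 CPM against 1.82, 0.186, 0.126 and 0.490 CPM, and HFCF replicate 5 was well above the rest of its group. Tmem72 and Asz1, a gene known for its germ cell role, were near the lower limit of detection on HF. Tmem72 measured 0.823, 0, 0.0630 and 0 CPM there and 2.65, 2.35, 1.10 and 3.38 CPM on HFCF, and Asz1 measured 0.588, 0, 0.126 and 0.122 against 2.75, 1.48, 1.68 and 2.94 CPM. Both were highest among HF livers in replicate 1. The Tmem72 call was lost without HFCF replicate 5 or HF replicate 3.

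The 10 genes that fell most by the same rule were Grid1, Cd163, Sult5a1, Pcp4l1, Enho, Sult2a8, Rdh16f2, Ciart, Ranbp3l and Cyp2b13, with log2 fold changes from -3.28 to -2.06. Enho, which encodes the secreted peptide adropin, measured 2.10, 3.73, 2.94 and 2.67 CPM on HFCF and 9.99, 29.3, 13.05 and 24.5 CPM on HF (log2 fold change -2.74, SE 0.36, edgeR adjusted p 0.00448). It overlaps Dnaic1. The libraries did not mark strand, so reads of overlapping genes cannot be fully told apart, which also touches Vcan, Abcg5, Abcg8, Srebf1, Pklr, Plin4, Cideb, Col18a1, Timp1, Cxcl10, Il1b, Prc1, Ccnd1, Apoh, Ndufs3, Serpina3m, G6pdx, Sds, Glul, Ciart and Nr1d1. Grid1, a glutamate receptor subunit, measured 0.800, 0.767, 0.682 and 0.436 CPM against 1.35, 8.45, 7.06 and 9.55 CPM (log2 fold change -3.28, SE 0.55, edgeR adjusted p 0.0058). Pcp4l1 measured 6.75, 7.51, 4.77 and 5.66 CPM against 20.7, 82.2, 44.6 and 38.9 CPM. Sult5a1 and Sult2a8 are sulfotransferases, and Sult2a8 measured 32.8, 37.8, 135 and 36.2 CPM against 145, 356, 424 and 347 CPM, with HFCF replicate 3 far above its group and still below HF replicate 1. In all 10 genes HF replicate 1 was the lowest HF liver.

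**Figure D2:**
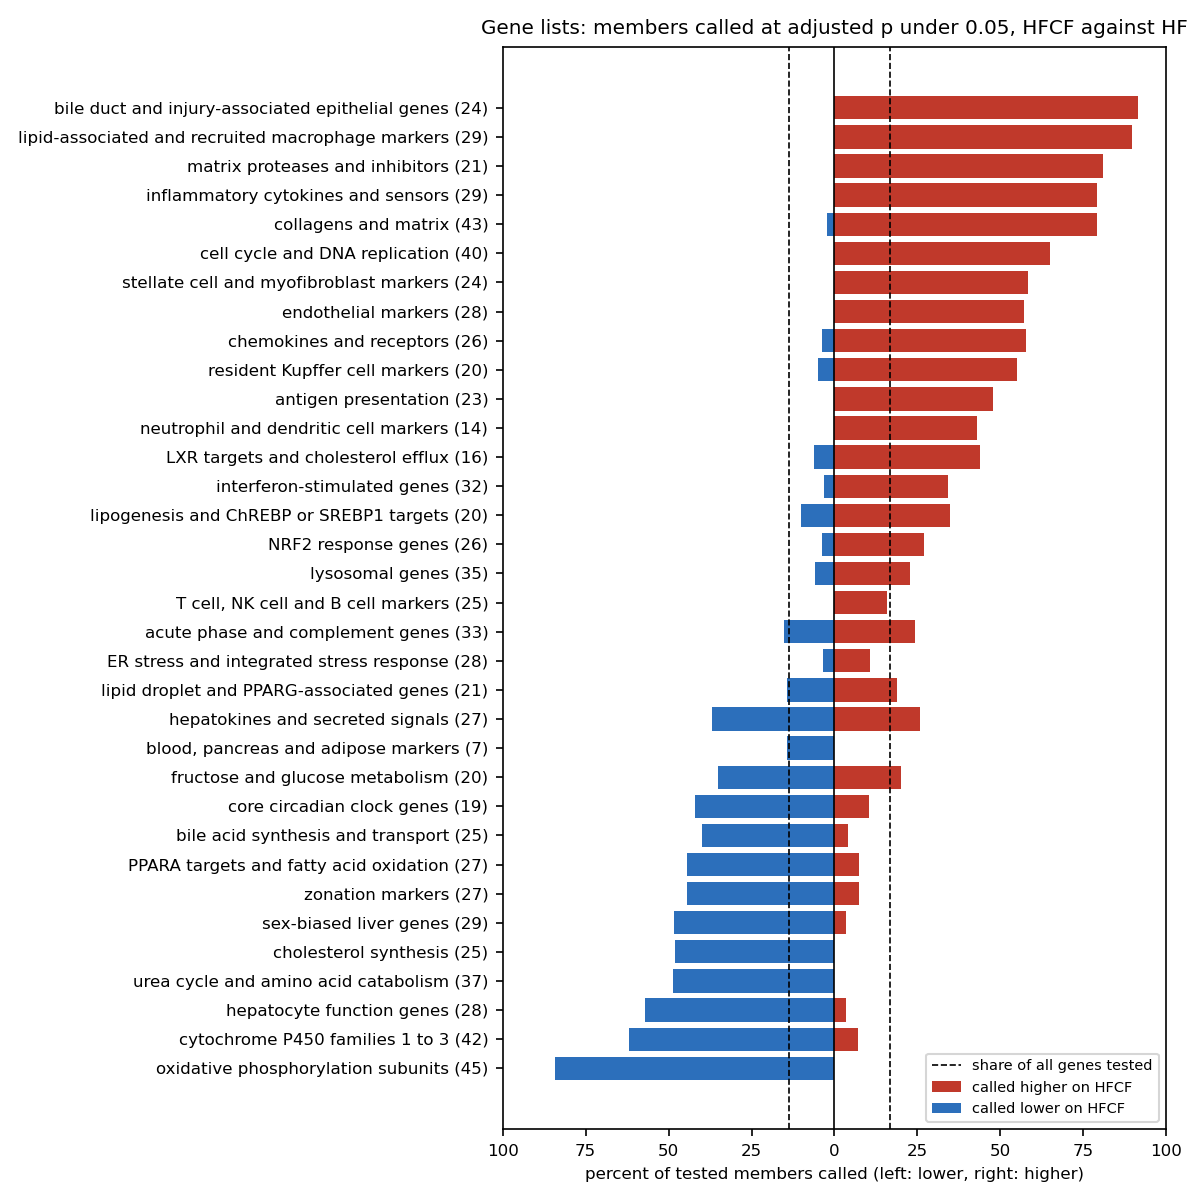
Percent of tested members called higher (right) and lower (left) on HFCF in 34 gene lists, with the number tested in parentheses and the shares over all genes tested (16.9% higher, 13.8% lower) as dashed lines. Bile duct, macrophage and matrix lists lie far to the right of the line and oxidative phosphorylation, cytochrome P450 and hepatocyte lists far to the left.

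Genes of cholesterol synthesis were lower on HFCF, and none rose. Of 25 tested members 12 fell and 13 were not called, and the list's median log2 fold change was -0.83 against -0.02 over all genes. This count depended on single livers. Without HF replicate 1 the median was -0.53 with 11 called lower, and with any 1 liver left out between 5 and 16 members were called lower (fewest without HFCF replicate 5). The promoters of 4 genes are shown here because these genes share the CCAAT letters of NF-Y, the factor that acts beside SREBP2 at sterol genes, and because Hmgcs1 is the called member that also holds the sterol regulatory element searched, with the other 3 being the CCAAT holders of smallest p. Sequences are from RefSeq on GRCm38.p6, 250 bases up to RefSeq's start site (which can differ from the gene bounds in the deposited table), 5′ to 3′ on the gene's strand, with TCACNCCAC and CCAAT on either strand in capitals. The windows lie at chr13:119690101-119690350 (plus strand) for Hmgcs1, chr8:64733579-64733828 (minus) for Msmo1, chr5:114444019-114444268 (plus) for Mvk and chr1:169969206-169969455 (minus) for Hsd17b7.
Hmgcs1: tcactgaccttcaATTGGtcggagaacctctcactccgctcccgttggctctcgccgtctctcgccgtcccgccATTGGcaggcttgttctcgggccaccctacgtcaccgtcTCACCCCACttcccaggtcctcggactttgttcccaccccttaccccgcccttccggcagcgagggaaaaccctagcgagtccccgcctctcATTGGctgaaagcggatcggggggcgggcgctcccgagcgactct
Msmo1: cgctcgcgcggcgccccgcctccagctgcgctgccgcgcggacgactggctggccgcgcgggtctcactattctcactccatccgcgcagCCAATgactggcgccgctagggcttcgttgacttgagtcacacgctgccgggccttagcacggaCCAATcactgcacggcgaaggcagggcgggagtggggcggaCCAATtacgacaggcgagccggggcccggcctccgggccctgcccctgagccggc
Mvk: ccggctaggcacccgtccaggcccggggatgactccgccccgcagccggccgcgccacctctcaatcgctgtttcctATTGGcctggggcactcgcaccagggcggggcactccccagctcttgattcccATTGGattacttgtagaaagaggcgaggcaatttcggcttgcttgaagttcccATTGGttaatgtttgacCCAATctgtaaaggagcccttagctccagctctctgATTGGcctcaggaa
Hsd17b7: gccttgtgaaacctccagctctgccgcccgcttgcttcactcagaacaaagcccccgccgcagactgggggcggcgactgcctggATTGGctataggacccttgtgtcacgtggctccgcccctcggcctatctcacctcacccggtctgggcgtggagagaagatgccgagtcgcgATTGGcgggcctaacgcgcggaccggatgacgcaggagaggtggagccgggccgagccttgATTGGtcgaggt

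Of the list's members, 18 matched a promoter entry by symbol, with 21 promoters in all. CCAAT was found in 16 of these promoters (76.2%), against 37.4% of all 32851 promoters in the table, and TCACNCCAC in 1 (4.76%), against 1.24%. All 10 members with an entry that fell held CCAAT in at least 1 promoter, and so did 6 of 7 that were tested and not called. In the windows printed, the CCAAT nearest to the start lies 45 bases before it in Hmgcs1, 55 in Msmo1, 14 in Mvk and 12 in Hsd17b7, and the TCACNCCAC of Hmgcs1 lies at 137. For Hmgcs1 the bases after RefSeq's start were not found near the start of a GENCODE transcript of the gene, so its distances hold for RefSeq's start only. A match of letters is not a bound site.

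Msmo1 (ENSMUSG00000031604, GRCm38 chromosome 8, 64718139 to 64733792, minus strand), a sterol demethylase of the pathway's late steps, measured 47.1, 37.9, 48.3 and 43.6 CPM on HFCF and 243, 75.2, 173 and 105 CPM on HF. Every HFCF liver was below every HF liver (log2 fold change -1.75, SE 0.31, edgeR adjusted p 0.00656), with -1.42 and 0.000985 without HF replicate 1. Mvk, mevalonate kinase, measured 11.8, 11.5, 11.4 and 13.8 CPM against 40.4, 16.96, 27.9 and 21.7 CPM (log2 fold change -1.14, SE 0.23, edgeR adjusted p 0.0093), and Hsd17b7, a late-step sterol reductase, 52.4, 45.6, 43.3 and 40.95 CPM against 152, 64.7, 91.03 and 82.2 CPM (log2 fold change -1.10, SE 0.23, edgeR adjusted p 0.00986). Hmgcs1 (ENSMUSG00000093930, GRCm38 chromosome 13, 119690379 to 119708260, plus strand), the synthase that makes HMG-CoA for sterols, measured 162, 138, 148 and 178 CPM against 642, 185, 304 and 186 CPM (log2 fold change -1.07, SE 0.36, edgeR adjusted p 0.0487). The groups did not overlap, and HF replicate 1 was by far the highest of the 8 livers. Without it the log2 fold change was -0.53 (edgeR adjusted p 0.032), and the call was lost without any 1 HFCF liver or HF replicate 3. Sqle, the squalene epoxidase, measured 29.9, 23.7, 21.1 and 35.1 CPM against 148, 23.97, 63.7 and 35.9 CPM and was not called (log2 fold change -1.31, SE 0.49, edgeR adjusted p 0.066), and HF replicate 1 was again the highest of the 8 livers.

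Among LXR targets and efflux genes 7 of 16 tested rose (43.8%, against 16.9% of all genes), 1 fell and 8 were not called, with a median log2 fold change of 0.18. Without HF replicate 1 there were 7 higher and 3 lower, in a fit where 24.2% of all genes were higher and 19.4% lower. The list's summed level was 23957 to 31502 CPM on HFCF and 28023 to 31950.1 CPM on HF, lower on average on HFCF. With plain library totals in place of TMM scaling it was 25745 to 31474 CPM on HFCF, a range that spans the 27438 to 29474 CPM on HF. Abundant members weigh most in such a sum, and it does not describe the typical member, whose median fold change was positive. Abcg1, which exports cholesterol to lipoproteins and is strongly expressed in macrophages, measured 33.1, 41.6, 28.9 and 33.5 CPM on HFCF and 16.5, 6.71, 9.46 and 6.49 CPM on HF (log2 fold change 1.80, SE 0.27, edgeR adjusted p 0.00546). The lowest HFCF liver exceeded the highest HF liver, replicate 1. Abca1, the other main lipid exporter to apolipoprotein A1, measured 301, 318, 301 and 274 CPM against 244, 205, 181 and 234 CPM (log2 fold change 0.47, SE 0.11, edgeR adjusted p 0.0128). The canalicular sterol exporters Abcg5 and Abcg8, which overlap each other so that their reads cannot be fully told apart, had log2 fold changes of 0.39 and 0.03 and were not called (adjusted p 0.107 and 0.898). The CCAAT letters stood in 8 of 16 promoters of this list and TCACNCCAC in 0.

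Bile acid uptake and synthesis genes were lower. In that list 10 of 25 tested members fell (40%, against 13.8% of all genes) and 1 rose (4%, against 16.9%). The counts were 12 and 1 without HF replicate 1. Slc10a1 (ENSMUSG00000021135, GRCm38 chromosome 12, 80953183 to 80968705, minus strand), the sodium-dependent bile acid uptake carrier NTCP, measured 280.1, 222, 360.1 and 203 CPM on HFCF and 517, 793, 679 and 802 CPM on HF (log2 fold change -1.39, SE 0.20, edgeR adjusted p 0.00546). The lowest HF liver, replicate 1, was still above every HFCF liver. Cyp8b1, the 12α-hydroxylase that makes cholic acid, measured 193, 147, 207 and 137 CPM against 399.6, 286, 252 and 261 CPM (log2 fold change -0.81, SE 0.18, edgeR adjusted p 0.012). Abcc4, a basolateral exporter, was the member that rose, from 13.2, 7.76, 5.48 and 6.86 CPM to 32.8, 15.2, 23.2 and 22.2 CPM (log2 fold change 1.48, SE 0.29, edgeR adjusted p 0.00867). Cyp7a1, the rate-limiting enzyme, spread from 64.4 to 469.5 CPM on HFCF and did not pass the test (log2 fold change -0.56, adjusted p 0.39). Abcb11, the canalicular bile salt pump, was not called at a log2 fold change of 0.06.

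Scd1 gave the largest change in lipogenesis. Scd1 (ENSMUSG00000037071, GRCm38 chromosome 19, 44394451 to 44407709, minus strand), the desaturase that makes oleate and palmitoleate, measured 44479, 31042, 45319 and 41021 CPM on HFCF and 10133, 398, 5065 and 3205 CPM on HF (log2 fold change 3.11, SE 0.73, edgeR adjusted p 0.0145, 3.81 and 0.00187 without HF replicate 1). The groups did not overlap, HF replicate 2 was lowest by a wide margin, and LF livers lay at 10166, 30151, 7364 and 10059 CPM. Of 20 lipogenic genes tested 7 rose (35%, against 16.9% of all genes) and 2 fell (10%, against 13.8%). The counts were 10 and 3 without HF replicate 1. Only 2 rose without HFCF replicate 1 or 5 or HF replicate 3 or 4. Me1, the malic enzyme that supplies NADPH, measured 460.0, 247, 352 and 366 CPM against 257, 167, 196 and 184 CPM (log2 fold change 0.83, SE 0.19, edgeR adjusted p 0.0137). Fasn, the fatty acid synthase, was not called with all livers (log2 fold change 0.82, adjusted p 0.0719) and was called without HF replicate 1 (1.10, 0.01). Srebf1, which encodes SREBP1, was at 0.18 with an adjusted p of 0.513. Dgat2, which catalyses the last step of triglyceride synthesis, fell from 808, 947, 963 and 1026 CPM to 571, 518, 643 and 464 CPM (log2 fold change -0.77, SE 0.12, edgeR adjusted p 0.00561).

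In the list of fructose and glucose metabolism 7 of 20 fell (35%, against 13.8% of all genes) and 4 rose (20%, against 16.9%). The counts were 8 and 5 without HF replicate 1, and 3 fell without HFCF replicate 2 or HF replicate 4. Slc2a2, the hepatocyte glucose and fructose transporter GLUT2, measured 419, 419, 429 and 356 CPM against 621, 600.0, 591 and 613 CPM (log2 fold change -0.58, SE 0.09, edgeR adjusted p 0.00546). Khk, which phosphorylates fructose, measured 449.7, 367, 460.1 and 415 CPM against 512, 507, 572 and 538 CPM (log2 fold change -0.33, SE 0.10, edgeR adjusted p 0.029), and Pklr, a ChREBP target, was not called (log2 fold change -0.35). Khk was called in 3 of 8 fits with 1 liver left out, those without HFCF replicate 3, HF replicate 1 or HF replicate 2.

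Of 27 fatty acid oxidation genes tested 12 fell (44.4%, against 13.8% of all genes) and 2 rose (7.41%, against 16.9%). The counts were 15 and 3 without HF replicate 1. Bdh1, which makes the ketone body 3-hydroxybutyrate, measured 343, 328, 382 and 325 CPM on HFCF and 506, 627, 508 and 508 CPM on HF (log2 fold change -0.64, SE 0.10, edgeR adjusted p 0.00561). Ehhadh, the peroxisomal bifunctional enzyme, was the clearest rise, 806, 674, 783 and 671 CPM against 459, 569, 433 and 490.1 CPM (log2 fold change 0.59, SE 0.11, edgeR adjusted p 0.00802). Cpt1a, the carnitine transferase that admits fatty acids to mitochondria, and Fgf21, a PPARα-regulated hormone, were not called, with log2 fold changes of -0.40 and 0.0. Cyp4a14 was called only without HF replicate 1 (log2 fold change -0.77, adjusted p 0.0108, against -0.60 and 0.0892 with it).

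Lipid droplet and PPARG-associated genes gave 4 rises (19%) and 3 falls (14.3%) among 21 tested, near the shares of all genes (16.9% and 13.8%). Without HF replicate 1 there were 12 higher and 3 lower, and 2 rose without any other 1 liver but HFCF replicate 3. Cidec, a lipid droplet fusion protein, measured 68.6, 69.7, 43.9 and 80.7 CPM on HFCF and 57.5, 9.999, 14.2 and 6.25 CPM on HF. HF replicate 1 lay inside the HFCF range, and the other 3 HF livers lay far below it. The log2 fold change was 1.58 (adjusted p 0.0663) with all livers and 2.69 (adjusted p 0.000123) without that liver. Plin4, a perilipin, showed the same dependence, 0.62 (adjusted p 0.172) and 0.90 (adjusted p 0.0289). Lpl, the lipoprotein lipase, did not: it measured 202, 281, 161 and 276 CPM against 52.2, 16.8, 35.7 and 13.1 CPM (log2 fold change 2.97, SE 0.42, edgeR adjusted p 0.00546, 3.39 and 0.000127 without HF replicate 1). Cideb, the hepatocyte member of the CIDE family, fell from 58.6, 60.3, 64.5 and 61.2 CPM to 43.5, 36.2, 52.3 and 40.3 CPM (log2 fold change -0.51, SE 0.11, edgeR adjusted p 0.0105).

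Most matrix genes were higher on HFCF. Of 43 collagen and matrix genes tested 34 rose and 1 fell, with a median log2 fold change of 1.57. Without HF replicate 1 it was 41, 1 and 2.08, and with any 1 liver left out the rises numbered 16 to 41 (fewest without HF replicate 3). Lox (ENSMUSG00000024529, GRCm38 chromosome 18, 52516069 to 52529867, minus strand), the oxidase that crosslinks collagen and elastin, measured 3.75, 6.23, 1.73 and 5.77 CPM on HFCF and 1.06, 0.0621, 0.378 and 0.306 CPM on HF (log2 fold change 3.24, SE 0.61, edgeR adjusted p 0.00767). Eln, elastin, measured 21.4, 28.8, 16.1 and 24.4 CPM against 9.69, 3.04, 5.30 and 3.92 CPM (log2 fold change 2.04, SE 0.33, edgeR adjusted p 0.00561). Vcan, the proteoglycan versican, measured 3.25, 4.09, 0.630 and 2.67 CPM against 0.588, 0.311, 0.189 and 0.122 CPM. In these genes no HF liver reached the HFCF range. Col3a1, a fibrillar collagen, measured 429, 437, 268 and 361 CPM against 214, 22.3, 47.3 and 20.7 CPM (log2 fold change 2.30, SE 0.69, edgeR adjusted p 0.0331, 3.63 and 7.89e-05 without HF replicate 1). Col18a1, which hepatocytes also make, was the member that fell (-0.39, adjusted p 0.0235). With 1 liver left out, Col3a1 was called only without HFCF replicate 3 or HF replicate 1 (2 of 8 fits), and Col18a1 only without these or HF replicate 3 (3 of 8).

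The major fibrillar collagen genes turned on HF replicate 1. Col1a1 (ENSMUSG00000001506, GRCm38 chromosome 11, 94936224 to 94953042, plus strand) measured 272, 316, 159 and 228 CPM on HFCF and 154, 9.94, 22.3 and 6.06 CPM on HF. That liver came just under the lowest HFCF liver, while the other 3 HF livers were at 22.3 CPM or below. With all livers the log2 fold change was 2.34 (SE 0.87, edgeR adjusted p 0.0668), and without that liver 4.25 (edgeR adjusted p 0.000108). Col1a2 behaved alike, 2.05 (adjusted p 0.0538) and 3.50 (8.95e-05), as did the proteoglycan Lum, 1.52 (0.0503) and 2.44 (0.000218). LF livers measured 59.4, 24.2, 17.01 and 27.9 CPM of Col1a1.

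Proteases and their inhibitors rose in 17 of 21 tested, and none fell (19 and 0 without HF replicate 1). Rises numbered as few as 6 without HFCF replicate 2 or 5 or HF replicate 2 or 3. Timp1, the metalloproteinase inhibitor, measured 7.20, 6.03, 3.72 and 5.45 CPM against 1.998, 0.373, 0.378 and 0.122 CPM (log2 fold change 2.93, SE 0.60, edgeR adjusted p 0.00917, 4.24 and 8.82e-05 without HF replicate 1). Mmp12, the macrophage elastase, measured 46.6, 67.1, 22.8 and 78.1 CPM against 19.3, 2.24, 6.87 and 0.367 CPM (log2 fold change 2.89, SE 0.78, edgeR adjusted p 0.0225). Mmp13, the interstitial collagenase of rodents, measured 6.30, 6.13, 1.47 and 16.3 CPM against 2.82, 0.248, 0.378 and 0.122 CPM and overlapped between groups (log2 fold change 3.05, SE 0.90, edgeR adjusted p 0.031). Mmp13 kept its call only without HFCF replicate 3 or HF replicate 1, and Mmp12 lost it without HFCF replicate 2 or 5 or HF replicate 2 or 3.

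Stellate cell and myofibroblast markers rose in 14 of 24 tested (58.3%, against 16.9% of all genes), and none fell. Without HF replicate 1, 18 of these markers rose and 1 fell. Only 5 of them rose without HFCF replicate 1 or 2 or HF replicate 3. Their summed level was 1041 to 1422 CPM on HFCF and 375 to 989 CPM on HF, and no member was at 0 in all 8 livers. Part of that sum is Spp1, which macrophages and bile ducts also express. Pdgfrb, the receptor that marks stellate cells, measured 55.1, 58.1, 40.4 and 45.7 CPM against 40.1, 8.57, 13.995 and 10.5 CPM (log2 fold change 1.44, SE 0.42, edgeR adjusted p 0.0306). Tgfb1, the fibrogenic cytokine, measured 36.6, 38.5, 29.3 and 33.2 CPM against 21.9, 11.9, 19.5 and 10.2 CPM (log2 fold change 1.11, SE 0.23, edgeR adjusted p 0.00903). Acta2, the actin of activated myofibroblasts, was not called (log2 fold change 0.99, adjusted p 0.124) and overlapped between groups. Lrat, which stores retinol in stellate cells, was not called with all livers (0.61, 0.0884) and was without HF replicate 1 (0.92, 0.00189). How far more stellate cells or more transcript per cell set these values was not tested. Pdgfrb was called in 2 of 8 fits with 1 liver left out, those without HFCF replicate 3 or HF replicate 1.

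**Figure D3:**
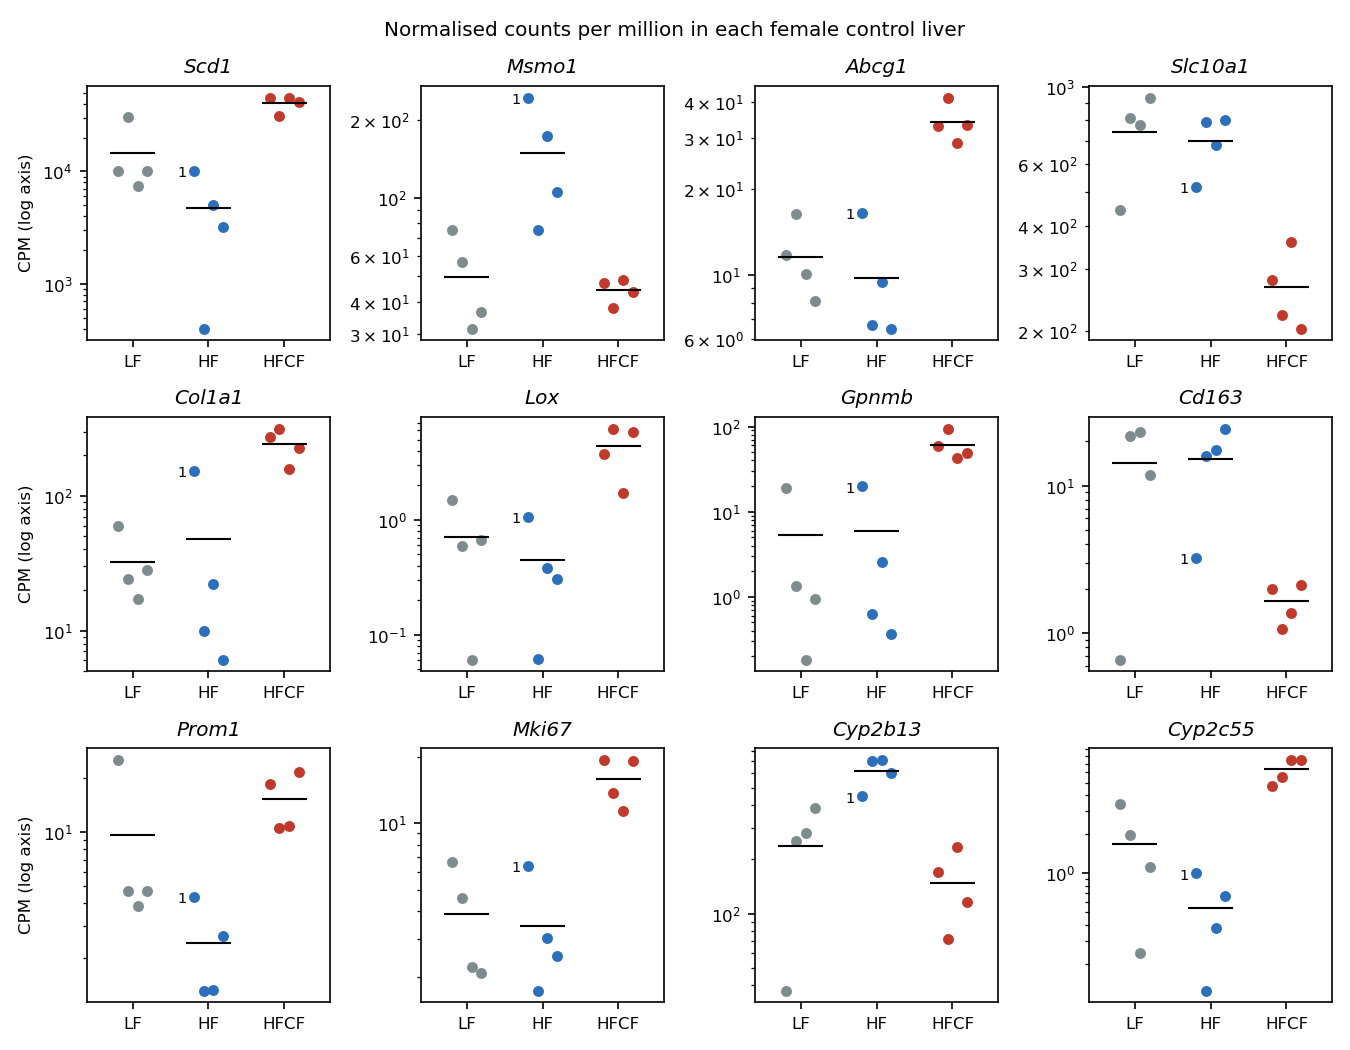
CPM (log axis) of 12 genes in each LF, HF and HFCF female control liver, with group means as lines and HF replicate 1 marked 1. HF replicate 1 lies near the HFCF livers for Col1a1, and is the highest liver for Msmo1.

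Markers of lipid-associated and recruited macrophages rose in 26 of 29 tested, with a median log2 fold change of 1.81 and no falls. Without HF replicate 1 it was 27 of 29, and the fewest rises with 1 liver left out were 19, without HFCF replicate 2. Their summed level was 2068 to 3061 CPM on HFCF and 562 to 1353 CPM on HF, with the highest HF value in replicate 1. The promoters of 3 genes are shown because these are the called members, in order of p, that hold, before the start site, GAGGAAGT, a site letter run of PU.1 and other ETS factors that act in macrophages. The capitals mark it on either strand, and the windows are 250 bases up to the start site at chr9:7344147-7344396 (plus strand) for Mmp12, chr5:104434861-104435110 (plus) for Spp1 and chr15:75111972-75112221 (minus) for Ly6c2.
Mmp12: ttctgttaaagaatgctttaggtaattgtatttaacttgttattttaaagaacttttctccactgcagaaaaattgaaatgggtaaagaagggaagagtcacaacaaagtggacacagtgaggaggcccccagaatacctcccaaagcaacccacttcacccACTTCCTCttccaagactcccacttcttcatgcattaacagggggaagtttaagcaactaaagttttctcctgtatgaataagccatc
Spp1: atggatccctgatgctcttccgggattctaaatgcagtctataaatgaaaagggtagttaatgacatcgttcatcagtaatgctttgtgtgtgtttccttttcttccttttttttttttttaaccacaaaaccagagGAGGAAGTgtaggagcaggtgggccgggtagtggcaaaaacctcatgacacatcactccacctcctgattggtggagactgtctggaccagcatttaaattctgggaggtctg
Ly6c2: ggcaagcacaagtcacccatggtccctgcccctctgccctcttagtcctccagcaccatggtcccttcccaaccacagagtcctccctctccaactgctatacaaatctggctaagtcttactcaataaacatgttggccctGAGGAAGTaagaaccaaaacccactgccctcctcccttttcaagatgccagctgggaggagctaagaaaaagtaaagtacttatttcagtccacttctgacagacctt

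Counting also the bases after the start, where Ctss, another called member, has its match, the letters stood in 5 of 28 promoters of 22 matched macrophage genes (17.9%) and in 3.2% of all promoters. Counting only bases before the start site gave 14.3% and 2.44%. In the windows shown the letters lie 88 bases before RefSeq's start in Mmp12, 113 in Spp1 and 108 in Ly6c2. Each of these genes has 2 promoter entries, and the first entry holding the letters is shown. The bases after the start were found near the start of a GENCODE transcript of the gene for the Spp1 window. For the Mmp12 and Ly6c2 windows shown they were not, so those distances hold for RefSeq's start only. Ly6c2, an antigen of recruited monocytes with a close paralog that may share its reads, measured 1.55, 2.56, 1.15 and 2.23 CPM on HFCF and 0.940, 0.373, 0.946 and 0.245 CPM on HF (log2 fold change 1.57, SE 0.45, edgeR adjusted p 0.0271).

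Gpnmb (ENSMUSG00000029816, GRCm38 chromosome 6, 49036546 to 49070929, plus strand), a glycoprotein of lipid-laden macrophages, measured 58.8, 94.6, 42.96 and 48.8 CPM on HFCF and 19.9, 0.621, 2.58 and 0.367 CPM on HF. Between the other HF livers and every HFCF liver lay HF replicate 1 (log2 fold change 3.37, SE 0.88, edgeR adjusted p 0.0202, 5.69 and 7.89e-05 without HF replicate 1). Trem2, the lipid-sensing receptor of these cells, measured 19.4, 39.2, 13.3 and 21.9 CPM against 11.4, 1.93, 3.28 and 1.22 CPM (log2 fold change 2.39, SE 0.61, edgeR adjusted p 0.0186). Cd9, a tetraspanin, measured 51.7, 59.5, 37.9 and 61.97 CPM against 27.4, 7.76, 10.3 and 7.17 CPM (log2 fold change 2.0, SE 0.40, edgeR adjusted p 0.00869). Spp1, osteopontin, measured 410.2, 473, 277 and 501 CPM against 252, 46.6, 63.7 and 34.1 CPM (log2 fold change 2.07, SE 0.58, edgeR adjusted p 0.0256). Adgre1, which encodes the pan-macrophage antigen F4/80, had the smallest p of the list, 62.9, 69.2, 77.6 and 57.7 CPM against 23.7, 13.4, 26.04 and 13.4 CPM (log2 fold change 1.81, SE 0.22, edgeR adjusted p 0.00447). HF replicate 1 was the highest HF liver in Gpnmb, Trem2, Cd9 and Spp1, but not in Adgre1. The Spp1 call was kept only without HFCF replicate 3 or HF replicate 1 (2 of 8 fits with 1 liver left out). Trem2 lost its call without HFCF replicate 2 or HF replicate 2 or 3, and Gpnmb without HFCF replicate 2 or HF replicate 3.

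More resident Kupffer cell markers rose than fell. Of 20 tested 11 rose (55%, against 16.9% of all genes) and 1 fell (5%, against 13.8%). Without HF replicate 1, 11 rose and 5 fell, in a fit where 24.2% of all genes were higher and 19.4% lower. The summed level of these markers was 1418 to 1605 CPM on HFCF and 839.9 to 1184 CPM on HF. Cd5l, a secreted macrophage protein, measured 339, 329, 302 and 274 CPM on HFCF and 100.5, 76.6, 158 and 88.4 CPM on HF (log2 fold change 1.55, SE 0.21, edgeR adjusted p 0.00484). The haemoglobin scavenger receptor Cd163 (ENSMUSG00000008845, GRCm38 chromosome 6, 124304656 to 124330527, plus strand) measured 2.001, 1.07, 1.36 and 2.12 CPM against 3.23, 15.9, 17.5 and 24.4 CPM (log2 fold change -3.21, SE 0.54, edgeR adjusted p 0.00584). Far below the other HF livers, replicate 1 was still above every HFCF liver, and LF replicate 1 was also low, at 0.658 CPM against 21.8, 23.1 and 11.7 CPM in the other LF livers. Timd4, a phosphatidylserine receptor of embryonically derived Kupffer cells, measured 2.55, 1.43, 5.51 and 1.91 CPM against 1.06, 5.22, 9.52 and 5.57 CPM. Marco, a scavenger receptor, measured 2.20, 0.818, 5.82 and 0.599 CPM against 0.764, 7.64, 19.4 and 5.45 CPM. Both overlapped between groups and were not called with all livers. Without HF replicate 1 both were called, with log2 fold changes of -1.25 (edgeR adjusted p 0.032) and -2.20 (edgeR adjusted p 0.0214). Marco was also called without HFCF replicate 3, and Timd4 without no other liver. Clec4f, a lectin restricted to Kupffer cells, measured 198, 132, 159 and 160.0 CPM against 97.1, 109, 170.3 and 128 CPM and was not called (adjusted p 0.148).

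Chemokines and receptors rose in 15 of 26 tested (57.7%, against 16.9% of all genes) and fell in 1 (3.85%, against 13.8%). The counts were 18 and 1 without HF replicate 1, and 7 rose without HFCF replicate 1. Ccr2, the receptor of recruited monocytes, measured 20.7, 30.3, 12.1 and 21.6 CPM against 10.4, 2.30, 4.03 and 1.65 CPM (log2 fold change 2.20, SE 0.51, edgeR adjusted p 0.0136), and its ligand Ccl2 measured 4.30, 3.83, 4.51 and 8.28 CPM against 2.29, 1.24, 2.58 and 0.796 CPM (log2 fold change 1.59, SE 0.39, edgeR adjusted p 0.0158). Cxcl12, made largely by stromal and endothelial cells, fell from 516, 543, 611 and 584 CPM to 425, 437, 472 and 333 CPM (log2 fold change -0.43, SE 0.12, edgeR adjusted p 0.0232). Cxcl10, an interferon-induced chemokine, was not called (0.32, adjusted p 0.466). The Cxcl12 call was lost without HFCF replicate 1 or HF replicate 3 or 4.

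Inflammatory cytokines and sensors rose in 23 of 29 tested, and none fell, with all livers and without HF replicate 1. Tnf stayed low in both groups, 1.30, 1.33, 1.42 and 1.14 CPM against 0.646, 0.497, 0.630 and 0.429 CPM, and did not overlap (log2 fold change 1.23, SE 0.26, edgeR adjusted p 0.0109). Il1b measured 5.25, 7.21, 8.24 and 6.48 CPM against 1.47, 2.61, 4.41 and 2.69 CPM (log2 fold change 1.28, SE 0.30, edgeR adjusted p 0.0134), and the bacterial lipoprotein receptor Tlr2 14.6, 16.5, 12.4 and 12.6 CPM against 8.99, 4.10, 5.67 and 2.51 CPM (log2 fold change 1.40, SE 0.32, edgeR adjusted p 0.0127). Il1b was lowest of all 8 livers in HF replicate 1.

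Lymphocyte markers gave fewer calls. In the T, NK and B cell list 4 of 25 tested rose (16.0%, near the 16.9% of all genes), and none fell. Without HF replicate 1, 6 of 25 rose, in a fit where 24.2% of all genes did. Without HFCF replicate 1 or HF replicate 2 or 4, 2 rose. Their summed level was 501 to 832 CPM on HFCF and 109 to 290.0 CPM on HF, mostly from Cd74, which other antigen-presenting cells also express. Cd3e, a T cell receptor subunit, and Cd8a, the cytotoxic T cell coreceptor, stayed at 0.353 to 1.48 and 0.551 to 2.23 CPM over the 8 livers and were not called (adjusted p 0.159 and 0.0775). Of 14 neutrophil and dendritic markers 6 rose (42.9%, against 16.9% of all genes), and none fell. Also without HF replicate 1, 6 of these markers rose, and 3 did without HFCF replicate 2. Their summed level was 338 to 439 CPM on HFCF and 155 to 270.0 CPM on HF. The neutrophil marker Ly6g was at 0 in all 4 HF livers. Flt3, the growth factor receptor of dendritic cells, measured 2.50, 2.10, 1.68 and 1.74 CPM against 1.23, 0.932, 1.26 and 0.612 CPM (log2 fold change 0.99, SE 0.29, edgeR adjusted p 0.0292). S100a8, of neutrophils, was not called (1.84, adjusted p 0.0944), with HFCF replicate 2 far above the other livers. Xcr1, of cross-presenting dendritic cells, was not called either (adjusted p 0.0655), with HF replicate 1 lowest. Flt3 was called in 3 of 8 fits with 1 liver left out, those without HFCF replicate 3, HF replicate 1 or HF replicate 3.

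Of 23 antigen presentation genes tested 11 rose and none fell (12 and 1 without HF replicate 1). No class I heavy chain of the list was called. H2-Aa, a class II chain, measured 219.8, 273, 159 and 217 CPM on HFCF and 94.5, 28.7, 42.3 and 22.6 CPM on HF (log2 fold change 2.21, SE 0.41, edgeR adjusted p 0.00713), and Cd74, the class II invariant chain, 577, 749, 439 and 594 CPM against 250.0, 79.6, 116 and 70.6 CPM (log2 fold change 2.19, SE 0.38, edgeR adjusted p 0.00626). The class I gene H2-K1 overlapped between groups (-0.13, adjusted p 0.332). Reads of MHC genes may be shared between close paralogs, as may those of H2-M2. Interferon-stimulated genes rose in 11 of 32 (34.4%, against 16.9% of all genes) and fell in 1 (3.12%, against 13.8%). The counts were 16 and 2 without HF replicate 1, and 7 rose without HFCF replicate 1. Oas2, a sensor of double-stranded RNA, measured 22.6, 24.3, 27.6 and 30.3 CPM against 10.4, 10.2, 11.2 and 7.84 CPM (log2 fold change 1.40, SE 0.14, edgeR adjusted p 0.00446). Isg15 rose modestly (0.46, adjusted p 0.0292), while Ifit1 was not called (-0.18). With 1 liver left out Isg15 was called in 3 of 8 fits, those without HFCF replicate 3, HF replicate 1 or HF replicate 2.

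Lysosomal genes rose in 8 of 35 (22.9%, against 16.9% of all genes) and fell in 2 (5.71%, against 13.8%), and in 15 and 3 without HF replicate 1, with 4 rising without HFCF replicate 2. Ctsd, a protease abundant in macrophages, measured 360.0, 387, 333 and 338 CPM against 279.7, 185, 217 and 192 CPM (log2 fold change 0.70, SE 0.13, edgeR adjusted p 0.00781). Lipa, the acid lipase that hydrolyses cholesteryl esters, measured 421, 423, 375 and 411 CPM against 401, 229.6, 288 and 260.1 CPM (log2 fold change 0.47, SE 0.16, edgeR adjusted p 0.0482), with HF replicate 1 inside the HFCF range. Lipa was called in 2 of 8 fits with 1 liver left out, those without HFCF replicate 3 or HF replicate 1.

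Bile duct and injury-associated epithelial genes had the highest share of rises, 22 of 24 tested (91.7%), with a median log2 fold change of 1.98 and none lower. The count was 22 without HF replicate 1 and at least 15 with any 1 liver left out (fewest without HF replicate 3). Their summed level was 1504 to 2712 CPM on HFCF and 516 to 1367 CPM on HF. Prom1 (ENSMUSG00000029086, GRCm38 chromosome 5, 43993620 to 44102032, minus strand), a progenitor-associated glycoprotein, measured 18.5, 10.5, 10.8 and 21.6 CPM on HFCF and 4.35, 1.30, 1.32 and 2.63 CPM on HF (log2 fold change 2.66, SE 0.40, edgeR adjusted p 0.00546). Epcam, a biliary adhesion molecule, measured 16.4, 16.6, 12.5 and 15.4 CPM against 7.11, 2.48, 3.47 and 2.27 CPM (log2 fold change 1.98, SE 0.32, edgeR adjusted p 0.00561). Krt19, the duct keratin, measured 8.25, 7.31, 4.14 and 10.1 CPM against 4.29, 0.870, 1.13 and 1.04 CPM (log2 fold change 2.01, SE 0.50, edgeR adjusted p 0.0171). Sox9, a ductal and progenitor factor, measured 21.1, 20.7, 13.4 and 25.3 CPM against 15.2, 4.53, 4.22 and 4.90 CPM (log2 fold change 1.48, SE 0.40, edgeR adjusted p 0.0237). In Krt19 and Sox9, HF replicate 1 exceeded HFCF replicate 3, and the remaining livers did not overlap. With 1 liver left out Sox9 was called in 2 of 8 fits, those without HFCF replicate 3 or HF replicate 1, and Krt19 in 7, all but that without HF replicate 3.

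Endothelial markers rose in 16 of 28 tested (57.1%, against 16.9% of all genes), and none fell. Without HF replicate 1, 19 of these markers rose and 0 fell, and 10 rose without HFCF replicate 1 or 2. Their summed level was 1095 to 1217 CPM on HFCF and 646 to 919 CPM on HF. Dll4, a Notch ligand, measured 11.7, 9.97, 11.9 and 11.1 CPM against 5.82, 5.28, 5.99 and 4.90 CPM (log2 fold change 1.02, SE 0.12, edgeR adjusted p 0.00446). Cd34, of capillarised endothelium, measured 9.10, 8.89, 6.61 and 7.41 CPM against 3.88, 0.870, 0.883 and 1.04 CPM (log2 fold change 2.25, SE 0.45, edgeR adjusted p 0.00869), and Vwf 20.5, 23.2, 23.03 and 20.9 CPM against 15.5, 7.83, 13.2 and 11.9 CPM (log2 fold change 0.85, SE 0.18, edgeR adjusted p 0.00977). Stab2, of sinusoidal cells, rose less (0.36, adjusted p 0.0194). The Stab2 call was lost without HFCF replicate 1 or 2 or HF replicate 4.

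Cell cycle genes rose in 26 of 40 tested and none fell (31 and 1 without HF replicate 1, and 15 higher without HFCF replicate 1). Prc1, which bundles the spindle midzone, measured 3.95, 3.68, 2.78 and 4.74 CPM against 1.29, 0.807, 0.756 and 0.612 CPM (log2 fold change 2.11, SE 0.28, edgeR adjusted p 0.00491). Mki67, the proliferation antigen, measured 19.4, 13.7, 11.3 and 19.1 CPM against 6.40, 1.74, 3.03 and 2.51 CPM (log2 fold change 2.21, SE 0.36, edgeR adjusted p 0.00561), and Top2a, the topoisomerase of dividing cells, 12.9, 9.45, 6.56 and 11.4 CPM against 4.99, 1.18, 1.95 and 0.612 CPM (log2 fold change 2.20, SE 0.51, edgeR adjusted p 0.0136). Ccnd1, cyclin D1, measured 161, 111, 117 and 107 CPM against 80.4, 52.05, 50.9 and 40.4 CPM (log2 fold change 1.15, SE 0.21, edgeR adjusted p 0.00684). Which cells carried these transcripts was not tested. The E2F letters TTTCCCGC stood in 3 of 40 promoters of the list (7.5%, against 1.07% of all promoters) and CCAAT in 28 (70.0%).

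Hepatocyte function genes fell in 16 of 28 tested and rose in 1 (20 and 2 without HF replicate 1, and 10 lower without HFCF replicate 1, 2 or 5). Their summed level, mostly Alb, was 79159.5 to 101310.0 CPM on HFCF and 123139 to 154486 CPM on HF. Alb, albumin, measured 47604, 42238, 52920.3 and 53057 CPM against 73120.0, 76732, 78459.9 and 81341 CPM (log2 fold change -0.66, SE 0.18, edgeR adjusted p 0.023), so both groups carry the defining product of the labelled tissue at a high level. Apoh, a secreted plasma glycoprotein that overlaps Prkca, measured 1136, 1081, 1406 and 1153 CPM against 1740.3, 2669.8, 2196 and 2507 CPM (log2 fold change -0.93, SE 0.15, edgeR adjusted p 0.00561). Hnf4a, the hepatocyte identity factor, fell slightly, 490.2, 458, 492 and 475 CPM against 522, 583, 559 and 624 CPM (log2 fold change -0.26, SE 0.08, edgeR adjusted p 0.046). Because CPM are shares of a library, the higher non-parenchymal markers and the lower hepatocyte markers are not independent measurements, and the part of each in the other was not tested. Hnf4a was called in 1 of 8 fits with 1 liver left out, that without HF replicate 1, and Alb in 3 of 8, those without HFCF replicate 3, HF replicate 1 or HF replicate 2.

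Cytochrome P450 genes of families 1 to 3 fell in 26 of 42 tested and rose in 3 (32 and 3 without HF replicate 1, and 13 lower without HFCF replicate 1). Members of these families are close paralogs, so reads may be shared among them. Cyp2b13 measured 171, 72.5, 233 and 117 CPM against 447, 702, 716 and 603 CPM (log2 fold change -2.06, SE 0.32, edgeR adjusted p 0.00561), and Cyp2b9 260.4, 156, 303 and 219 CPM against 390.0, 671, 544 and 673 CPM (log2 fold change -1.28, SE 0.23, edgeR adjusted p 0.00639). Cyp3a11, a drug-metabolising enzyme induced through PXR, rose, 2237, 2162, 2064 and 2345 CPM against 1172, 1507, 767 and 1054 CPM (log2 fold change 0.97, SE 0.18, edgeR adjusted p 0.0076). Cyp2c29 was not called (-0.26).

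Genes with sex-biased liver expression fell in 14 of 29 tested (48.3%, against 13.8% of all genes) and rose in 1 (3.45%, against 16.9%). The counts were 19 and 2 without HF replicate 1, and 6 fell without HFCF replicate 5. These counts were not split by the sex in which a gene is higher. The female-biased Cyp2b13 and Cyp2b9, with values above, were among those that fell, and in both HF replicate 1 was the lowest HF liver and above every HFCF liver. C6, a complement component also listed among Kupffer markers, was the member that rose (1.04, adjusted p 0.0088).

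Zonation markers fell in 12 of 27 (44.4%, against 13.8% of all genes) and rose in 2 (7.41%, against 16.9%). The counts were 16 and 2 without HF replicate 1, and 6 fell without HFCF replicate 2 or 5. The falls included genes of both zones. Asl, a periportal urea cycle enzyme, measured 307, 234, 369 and 222 CPM against 436, 604, 703 and 887 CPM (log2 fold change -1.22, SE 0.23, edgeR adjusted p 0.00767). Cyp2e1, a pericentral enzyme, measured 3702, 3651, 6311 and 2866 CPM against 6028, 12939, 8877 and 12190.0 CPM (log2 fold change -1.28, SE 0.30, edgeR adjusted p 0.0141), with HFCF replicate 3 just above HF replicate 1. Glul, the glutamine synthetase of the innermost pericentral layer, and Sds, a periportal enzyme, were not called (-0.41 and -0.23). Urea cycle and amino acid genes fell in 18 of 37 (48.6%, against 13.8% of all genes), and none rose. The counts were 29 and 0 without HF replicate 1, and 11 fell without HFCF replicate 1 or 2 or HF replicate 4. Arg1, arginase, measured 959, 753, 1035 and 822 CPM against 1142, 1306, 1427 and 1501 CPM (log2 fold change -0.59, SE 0.13, edgeR adjusted p 0.0123). Cps1, the entry enzyme of the cycle, was called only without HF replicate 1 (-0.58, adjusted p 0.038), and Tat was not called (-0.22).

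Oxidative phosphorylation subunits showed small falls in nearly the whole list. Of 45 tested 38 fell (84.4%) and none rose, with a median log2 fold change of -0.36, and 40 fell without HF replicate 1. As few as 16 fell without HFCF replicate 1 or 2 or HF replicate 3, and 0 passed a log2 fold change of at least 1. TMM factors, by which levels are divided, were 1 to 1.129 in HFCF livers and 0.905 to 0.98 in HF livers. Falls as small as these therefore depend on the scaling, and its part in them was not tested. Ndufs3, of complex I, measured 65.9, 62.7, 79.5 and 71.2 CPM against 92.5, 114, 113 and 105 CPM (log2 fold change -0.60, SE 0.10, edgeR adjusted p 0.00561). Atp5b, of the ATP synthase, measured 1138, 1073, 1151 and 1082 CPM against 1287, 1309, 1315 and 1354 CPM (log2 fold change -0.24, SE 0.08, edgeR adjusted p 0.049), and Sdhb and Ndufa1 fell by 0.44 and 0.35 on the log2 scale. With 1 liver left out Atp5b was called in 1 of 8 fits (without HFCF replicate 3), Sdhb in 2 (without HFCF replicate 3 or HF replicate 1) and Ndufa1 in 3 (without HFCF replicate 2 or HF replicate 1 or 2).

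Acute phase and complement genes gave 8 rises (24.2%) and 5 falls (15.2%) among 33 tested, against 16.9% and 13.8% of all genes, so the share that fell was near that of all genes (10 and 9 without HF replicate 1, and 2 higher without HFCF replicate 1). Lcn2, an iron-sequestering lipocalin, measured 129, 159, 93.8 and 164 CPM against 93.2, 30.4, 35.8 and 14.2 CPM (log2 fold change 1.65, SE 0.47, edgeR adjusted p 0.0275). Saa1, a serum amyloid, measured 242, 197, 148 and 200.1 CPM against 147, 70.1, 109.9 and 48.6 CPM (log2 fold change 1.07, SE 0.30, edgeR adjusted p 0.0275), and Orm2 rose with overlap (1.13, adjusted p 0.0399). Serpina3m, which overlaps Serpina3k and belongs to a family of close paralogs, fell (-0.99, adjusted p 0.00561). Among NRF2 response genes 7 of 26 rose (26.9%) and 1 fell (3.85%), against 16.9% and 13.8% of all genes. Without HF replicate 1, 18 rose. G6pdx, the entry enzyme of the pentose phosphate pathway, measured 15.6, 17.1, 15.004 and 12.96 CPM against 8.75, 4.78, 7.19 and 5.02 CPM (log2 fold change 1.24, SE 0.20, edgeR adjusted p 0.00561). Nqo1 was not called (0.25), and Gsta1 was called only without HF replicate 1 (2.66, adjusted p 0.00166). ER stress genes gave 3 rises and 1 fall of 28 (10.7% and 3.57%), below the shares of all genes. Atf3, a stress-induced factor, rose (1.32, adjusted p 0.0486), Herpud1 fell (-0.65, adjusted p 0.00725), and Ddit3 and Trib3 were not called. With 1 liver left out Lcn2 and Saa1 were each called in 3 of 8 fits, without HFCF replicate 3 or HF replicate 1 or 4. Orm2 and Atf3 were each called in 2 of 8, without HFCF replicate 3 or HF replicate 1.

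Clock genes fell in 8 of 19 (42.1%, against 13.8% of all genes) and rose in 2 (10.5%, against 16.9%). The counts were 9 and 2 without HF replicate 1, and none rose without HF replicate 3. Arntl, which encodes the activator BMAL1, measured 2.50, 3.53, 3.46 and 9.91 CPM against 1.23, 1.80, 0.693 and 1.71 CPM (log2 fold change 1.82, SE 0.48, edgeR adjusted p 0.0203), with HFCF replicate 5 highest. Per2, a repressor, measured 40.1, 37.5, 52.5 and 31.9 CPM against 73.9, 77.1, 89.3 and 70.3 CPM (log2 fold change -0.94, SE 0.15, edgeR adjusted p 0.00546), and Ciart, another repressor, 5.002, 3.83, 6.30 and 1.31 CPM against 12.9, 20.7, 21.2 and 19.5 CPM (log2 fold change -2.17, SE 0.37, edgeR adjusted p 0.00604). Nr1d1 was not called (-0.18). The hour at which livers were taken is not given in the sources used here, and its part in these values was not tested. Secreted signals gave 7 rises (25.9%) and 10 falls (37%) of 27, against 16.9% and 13.8% of all genes. The counts were 10 and 11 without HF replicate 1. Rises numbered 2 without HF replicate 3, and falls 6 without HFCF replicate 1. Lepr, the leptin receptor, whose soluble form the liver releases, measured 25.6, 29.7, 21.04 and 28.8 CPM against 11.2, 22.5, 5.86 and 10.2 CPM (log2 fold change 1.08, SE 0.33, edgeR adjusted p 0.0343), far below LF livers at 60.02, 109, 84.9 and 91.5 CPM. Gdf15, a stress-induced hormone, was not called (0.54). Of 7 blood, pancreas and adipose markers tested, Cela1, an elastase, was called (-0.85, adjusted p 0.0209) and Hbb-bs, a haemoglobin chain, was not (-0.40). The Arntl call was lost without HF replicate 3, the Cela1 call without HFCF replicate 1 or 2 or HF replicate 3, and Lepr was called only without HFCF replicate 3 or HF replicate 1 or 2.

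**Figure D4:**
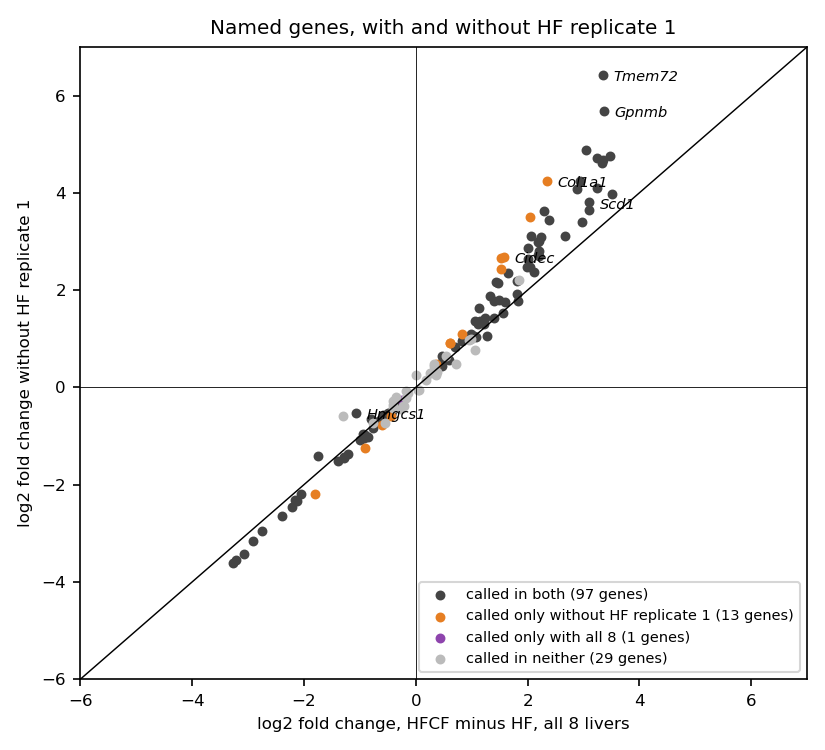
Log2 fold change of the 140 named genes, with all 8 livers (x axis) and without HF replicate 1 (y axis), and the line of equality. Most rises lie above the line, 13 genes were called without that liver and not with all 8, and the sterol genes, such as Hmgcs1, moved towards 0.

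The same diet contrast in male controls, 6 HFCF against 6 HF livers with the same virus, shares no liver with the females. A sex by diet interaction was called for 1 of 15491 genes (0.00646%), with 2561 at an unadjusted p under 0.05. That gene was Cyp2c55. In males it measured 3.75 ± 0.76 CPM on HFCF and 2.49 ± 0.62 CPM on HF (SD, n = 6), against 6.40 ± 1.41 and 0.56 ± 0.38 CPM in females (SD, n = 4). The female minus male difference in response was 2.91 on the log2 scale (edgeR adjusted p 0.0162). Without female HF replicate 1 the number of genes with an interaction rose to 1699, so this count rests on that liver. It was 5 without HFCF replicate 3 and 0 without HFCF replicate 5 or HF replicate 3, and DESeq2's Wald test gave 134. List medians were nearer to 0 in males for collagens (0.73 against 1.56 in the joint fit), cell cycle (0.48 against 1.23), bile duct genes (1.44 against 1.97) and sex-biased genes (-0.23 against -1.01), and further from 0 for cholesterol synthesis (-1.33 against -0.84). Medians had opposite signs for lipogenesis (0.38 in females and -0.35 in males), lipid droplet genes (0.40 and -0.11) and secreted signals (-0.06 and 0.02). No difference of these medians was tested.

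**Figure D5:**
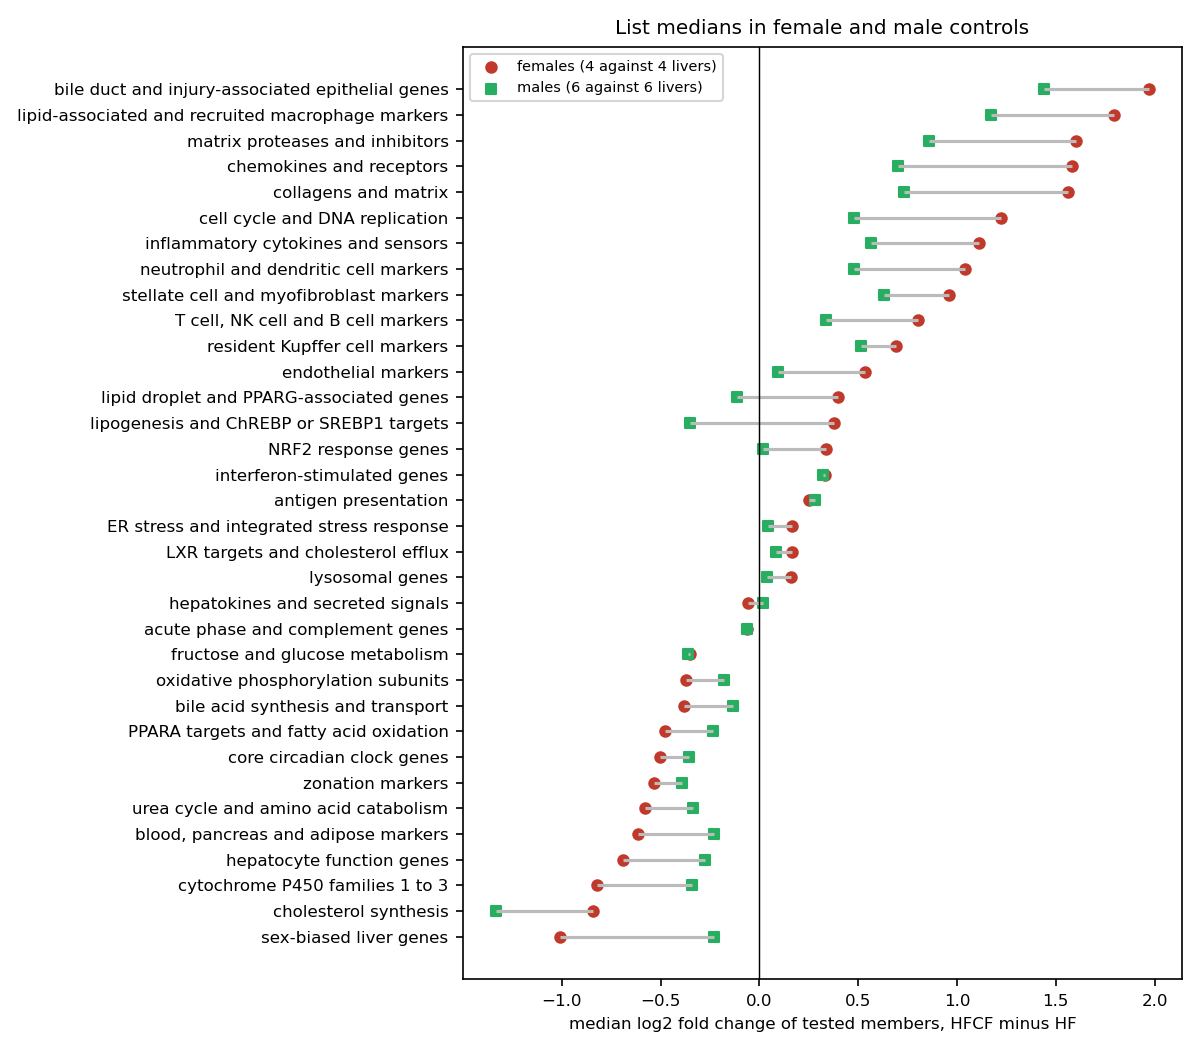
Median log2 fold change of HFCF against HF in 34 gene lists, in female controls (circles, 4 against 4 livers) and male controls (squares, 6 against 6). Matrix, bile duct and cell cycle medians were positive in both sexes with larger values in females, and the cholesterol synthesis median was more negative in males, at -1.33.

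In females labelled knockout, which received the Cre virus, 4 HFCF against 4 HF livers gave a genotype by diet interaction in 0 of 15445 genes with edgeR, with 667 at an unadjusted p under 0.05, 0 by DESeq2's Wald test, and 0 without HF control replicate 1. The log2 fold changes of those livers were 1.98 for Scd1, 5.54 for Gpnmb, 2.95 for Col1a1, -1.49 for Msmo1 and 2.02 for Cyp2c55.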

How the data were processed

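Whole-liver RNA was sequenced from libraries that did not mark strand. The authors deposited raw read counts per gene in tables that each pair 2 groups, and the table of HFCF against HF female controls gave the 8 libraries used for the main comparison. STAR 2.6.1, HTSeq 0.6.1, DESeq2 and the build GRCm38/mm10 are named in the submitters' processing notes without roles or order, and the annotation is not given in the sources used here. The authors' deposited log2 fold changes and adjusted p-values were used only to describe the overlap of calls, and their test is not given in the sources used here. Counts repeated between the 5 tables used (of 11) were checked, and 0 of 92604 differed. Per the file headers, gene names, types and coordinates come from the same tables.

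Counts were tested with edgeR 4.0.16 (R 4.3.3), using filterByExpr, TMM scaling, the quasi-likelihood F test and Benjamini-Hochberg adjustment over all tested genes, with calls under 0.05. CPM are TMM-scaled and depend on the library's composition. Interaction terms came from joint fits with 12 male controls or 8 females labelled knockout. Depth was 16957829 to 19078940 reads per library. The code was tested on simulated data. DESeq2 1.42.0, other filters, size factors, a replicate block and leaving out each liver were alternatives.

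Named genes were Pparg, the 10 largest called changes each way (mean of at least 1 CPM, no overlap between groups, no predicted genes), anchors set for each of 34 lists, the called member of smallest p in each direction, and genes with a called interaction. Of 922 list genes, 904 were in the table. Some genes that this rule names are not reported here. Promoters shown were, for macrophage genes, called members with GAGGAAGT before the start, in order of p, and for sterol genes the called holder of TCACNCCAC followed by called CCAAT holders in order of p. Members, lists and anchors were chosen with earlier results of these data known. The shared replicate numbers do not pair the livers, since the labels tie them to no litter, batch or day.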

Additional observations from a re-analysis of the deposited data

Results flagged for a closer look

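Within each group of 4 livers, a value was examined where its gap to the nearest other liver was large against the group's whole range (Dixon's 95% criterion for 4 values), which chance alone gives in about 1 of 20 groups (5%). Of 280 groups examined, 25 held such a liver, and 16 of these were HF replicate 1.

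HF replicate 1 was the highest of its group for Gpnmb (19.9 CPM, others 0.367 to 2.58), Cidec (57.5, others 6.25 to 14.2), Col1a1 (154, others 6.06 to 22.3), Col1a2 (126, others 10.8 to 24.9), Col3a1 (214, others 20.7 to 47.3), Timp1 (2.0, others 0.122 to 0.378), Mmp13 (2.82, others 0.122 to 0.378), Cd9 (27.4, others 7.17 to 10.3) and Spp1 (252, others 34.1 to 63.7). The same held for Cd34 (3.88 CPM, others 0.87 to 1.04), Krt19 (4.29, others 0.87 to 1.13), Sox9 (15.2, others 4.22 to 4.90), Scube3 (2.17, others 0.186 to 0.378), Tmem72 (0.823, others 0 to 0.063) and Pklr (622 CPM, others 399 to 432). It was the lowest for Xcr1, at 0.235 CPM.

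HFCF replicate 5 was the highest of its group for Adcy1 (16.3 CPM), Ccl2 (8.28), Isg15 (18.4) and Arntl (9.91), and the lowest for Slc2a2 (356) and Xcr1 (0.926). HFCF replicate 3 was the highest for Sult2a8 (135 CPM), HFCF replicate 2 for S100a8 (5.72 CPM) and HF replicate 2 for Bdh1 (627 CPM).

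Cyp2c55 was the gene whose diet response differed between the sexes by the interaction test, by 2.906 on the log2 scale, female minus male, with edgeR adjusted p 0.0162.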

How the results depend on the processing

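The count of 4526 called genes was 4524 with DESeq2 size factors, 5166 with DESeq2's Wald test, 4146 without a filter on low counts, 3843 with at least 10 counts in every library and 4402 with all female groups in 1 fit. With a log2 fold change of 1 or more in either direction, 1718 were left. Leaving out 1 liver gave 2454 to 6530, the highest without HF replicate 1. The Pparg difference of 0.386 ranged from 0.225 to 0.506. In the exact permutation test, p was 0.0571 to 0.114 with any liver other than HF replicate 1 left out. Without HF replicate 1, p was 0.0286, the smallest value that test can then give. Only that liver made the groups overlap, so leaving it out fixed this p, which adds no evidence of a difference. The sex by diet interaction, called in 1 gene, gave 134 with DESeq2's Wald test, 0 with at least 10 counts in every library (2224 at an unadjusted p under 0.05) and 0 to 1699 with 1 liver left out. The genotype by diet interaction gave 0 genes in every alternative run. Summed list levels were also computed with plain library totals in place of TMM scaling. In 17 of 34 lists this moved the log2 ratio of group means by at least the spread within groups.

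Same-numbered livers did not deviate together (correlations 0.082, -0.205 and 0.069). A replicate block on numbers 1, 2 and 3, which drops HFCF replicate 5 and HF replicate 4, called 0 of 15343 genes, with 4432 at an unadjusted p under 0.05. With a replicate block the sex interaction was called in 0 genes (1441 at an unadjusted p under 0.05) and the genotype interaction in 0 (465). The cause of these losses was not tested.

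The log2 fold changes that changed sign did not pass the test with all livers or under these alternatives. Abcg8 was -0.125 without HFCF replicate 3, -0.010 without HFCF replicate 5 and -0.064 without HF replicate 1, with 0.118 the highest, without HFCF replicate 2. Abcb11 was -0.062 without HF replicate 1 and at most 0.19, without HF replicate 4. Fgf21 was -0.001 without a filter, -0.387 under the replicate block, and -0.188, -0.104, -0.073 and -0.220 without HFCF replicate 2, HFCF replicate 5, HF replicate 2 and HF replicate 4, with 0.258 the highest, without HF replicate 1. Cxcl10 was -0.033 under the replicate block. At this depth, genes near the filter, such as Asz1 or Tmem72, rest on few reads.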
